A study of Mus musculus with 7 samples.

Results

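The R-Ras and Rap GTPases are small G proteins that sit on cell membranes and switch between a GTP-bound active and a GDP-bound resting form. Their messages were read in P14 optic nerves of mice that lack fatty acid synthase (FASN) in the oligodendrocyte (OL) lineage. The genes described are Rras, Rras2, Mras, Rap1a, Rap1b, Rap2a, Rap2b and Rap2c, which encode the GTPases, and the exchange factor genes Kndc1 and Rasgrp3. They were taken by gene name, 10 of the 22880 genes in the deposited table, and all 10 passed the filter on low values. The set was chosen by the FPKM difference between the genotypes in these same samples, which was known when the names were picked. The differences between genotypes, and the counts of these genes past a threshold in the fit across all genes, are therefore given as a description and support nothing, and no p-value is printed for any of the 10.

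Exchange factors load such GTPases with GTP, and GTPase-activating proteins return them to rest. R-Ras proteins and Rap1 are known for controlling integrin adhesion, Rap2 for signalling to kinases that act on the actin skeleton, and R-Ras1 (the product of Rras) and R-Ras2 have been linked to OL differentiation and myelination in mice. Most of these proteins reach the membrane only after a prenyl lipid, and in several cases a fatty acid, has been attached near their C-terminus.

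Control mice (CT, n = 4) were homozygous for the floxed Fasn allele (FASN lox/lox) without Cre, and mutant mice (cMU, n = 3) carried the same floxed alleles with Cre driven by Olig2 regulatory sequence (olig2cre FASN lox/lox). Both groups are labelled C57Bl/6 (the floxed line was of mixed origin and crossed back into it), were 14 days old, and each sample was RNA of both optic nerves of 1 mouse. Olig2-driven Cre acts mainly in the OL lineage, and recombination in other cells of the nerve was not measured here. Totals of 27456500 to 43462291 reads per sample, summed over genes, were inferred from the deposited normalized counts. The level of a gene is given in FPKM, fragments scaled for transcript length and library size. Fasn itself had 204.7 FPKM ± 25.1 (SD, n = 4) in control and 56.3 FPKM ± 11.3 (SD, n = 3) in mutant nerves.

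Across the 13866 genes tested, 363 (2.62%) differed between the genotypes at an adjusted p under 0.05 by limma-trend, 188 of them (1.36%) lower and 175 (1.26%) higher in mutant nerves. The split into 135 higher and 221 lower genes under median ratio scaling, and 139 higher and 295 lower under upper quartile scaling, shows that it moved with the scaling of the samples. The median difference of all genes tested was 0.05 on the log2 scale. The 2 groups had values without overlap in 2931 of the tested genes (21.1%).

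Of the 10 genes, Kndc1, Rras2 and Rap2a lay past that threshold, all lower in mutant nerves, next to 2.62% of all genes tested. In 5 of them the groups did not overlap (Kndc1, Rras2, Rap2a, Rap2c and Mras), next to 21.1% of all genes tested. Because the genes were picked with this contrast known, nothing is read from either count. When same-numbered samples were treated as a replicate block, 5 genes lay past the threshold, as Mras (higher) and Rap1a (lower) joined the other 3. Control sample 4 has no same-numbered mutant sample, so it had no part in the differences under the block. The log2 difference of Rap1a was -0.40 with the block and also without control sample 4. Dropping control sample 1, 2, 3 or 4 left 1, 1, 0 or 3 genes past the threshold, and dropping mutant sample 1, 2 or 3 left 2, 4 or 0. In the limma-trend fits with 0 genes called, 5 (without control sample 3) and 4 (without mutant sample 3) of the 10 genes had an unadjusted p under 0.05, next to 19.1% and 19.9% of all genes tested, and with all samples edgeR called 3 genes and DESeq2 4 genes.

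The upstream sequences of the 3 genes past the threshold, picked by their difference in these same samples, are shown as a description. Whether these genes share any control through their promoters was not tested. RefSeq promoter windows (GRCm38.p6) were found for 9 of the 10 genes, and the 250 bases before the start are printed 5′ to 3′ on the strand of the gene. Capitals mark GGGCGG, the core of sites for Sp and KLF factors, on either strand. The windows are chr7:139894446-139894695 on the plus strand for Kndc1, chr7:114117782-114118031 on the minus strand for Rras2 and chr14:120478211-120478460 on the plus strand for Rap2a.
Kndc1: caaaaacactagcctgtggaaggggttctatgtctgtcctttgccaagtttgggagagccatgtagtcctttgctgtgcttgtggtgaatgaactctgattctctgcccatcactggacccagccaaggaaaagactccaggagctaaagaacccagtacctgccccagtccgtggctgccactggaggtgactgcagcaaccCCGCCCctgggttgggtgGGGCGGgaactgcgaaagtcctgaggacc
Rras2: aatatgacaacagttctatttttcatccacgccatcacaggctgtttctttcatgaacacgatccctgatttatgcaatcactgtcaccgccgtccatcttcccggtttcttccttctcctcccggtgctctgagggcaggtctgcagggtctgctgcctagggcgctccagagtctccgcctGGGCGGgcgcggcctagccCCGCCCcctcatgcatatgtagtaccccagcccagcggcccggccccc
Rap2a: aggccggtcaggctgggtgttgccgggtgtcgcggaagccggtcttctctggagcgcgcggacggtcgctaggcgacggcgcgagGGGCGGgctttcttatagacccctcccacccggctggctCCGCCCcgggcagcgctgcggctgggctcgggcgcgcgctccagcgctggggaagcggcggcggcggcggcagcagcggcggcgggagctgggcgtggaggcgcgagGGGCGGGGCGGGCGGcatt

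The GGGCGG core was found 2 times in the window of Kndc1, 2 times in that of Rras2 and 5 times, with overlapping matches, in that of Rap2a. Of all 32851 promoter windows, 32.7% hold it at least once, and so do those of Mras, Rap1b, Rap2b and Rap2c. The starts used for Mras and Rap2b lie 669 and 2869 bases inside the gene. The E-box CAGCTG (13% of all windows), the SOX core ACAAAG (16.5%) and TCACNCCAC, a form of the SREBP element (1.05%), were searched on both strands. They had no match in the windows of Kndc1, Rras2 and Rap2a. The windows differed in composition. Rap2a had 78.0% G and C with 39 CG steps, Rras2 59.6% with 14, and Kndc1 56.4% with 4, against a median of 52.4% G and C over all windows.

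**Figure D1:**
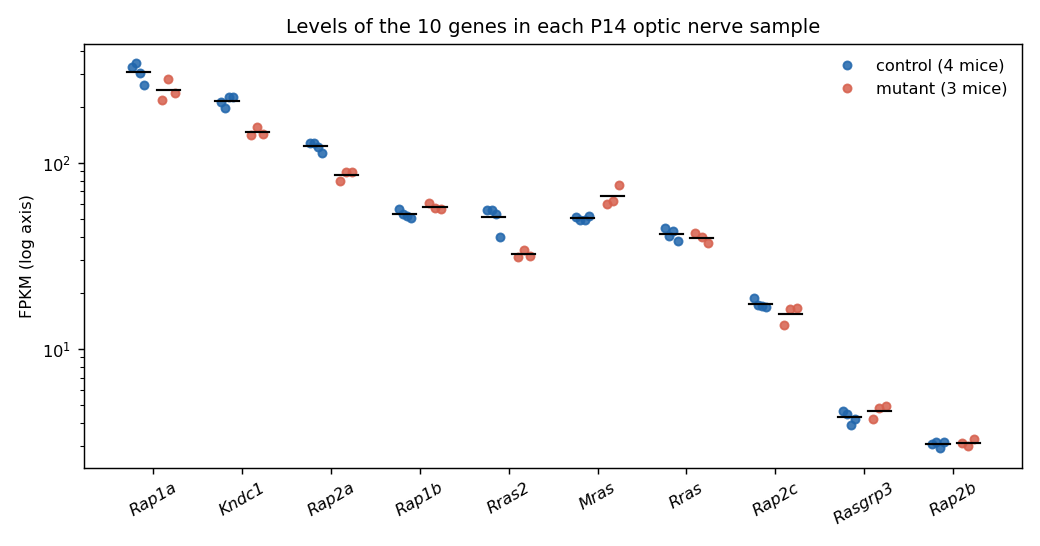
FPKM (log axis) of the 10 genes in each of 4 control (blue) and 3 mutant (red) optic nerve samples, with a bar at each group mean. Levels run from about 3 FPKM for Rap2b to over 300 FPKM for Rap1a, and the groups are separate for Kndc1, Rap2a, Rras2, Mras and Rap2c.

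In control nerves Rap1a was the most abundant of the 10 messages, with a mean of 307.7 FPKM, followed by Kndc1 with 214.6, Rap2a with 122.1, Rap1b with 52.9, Rras2 with 51.1, Mras with 50.3, Rras with 41.5, Rap2c with 17.4, Rasgrp3 with 4.31 and Rap2b with 3.08 FPKM. FPKM is scaled for length, so these levels can be set beside each other. The control values of Rap1b and Rras2 overlapped, as did those of Rras2 and Mras, whereas all other neighbours in this order were separate. Kndc1 stood at rank 285 of the 13866 genes tested by its control mean. By subfamily, Rap1a made up 85.3% ± 1.08 (SD, n = 4) of Rap1 FPKM and Rap2a 85.6% ± 0.511 (SD, n = 4) of Rap2 FPKM in control nerves. The R-Ras genes were more even, with 29.1% Rras, 35.6% Rras2 and 35.3% Mras.

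Kndc1 (ENSMUSG00000066129, GRCm38 chromosome 7 from 139894696 to 139941537, plus strand) encodes a brain-enriched Ras exchange factor with KIND domains, known for its role in dendrite growth. Controls 1 to 4 had 212.8, 195.8, 225.2 and 224.6 FPKM, and mutants 1 to 3 had 140.4, 155.3 and 142.2 FPKM. The groups were separate, and the gap between the groups was wider than the spread within either. The mutant mean was 68.0% of the control mean, a log2 difference of -0.55 (standard error 0.0708). It rested on 16284 to 40806 reads per sample, inferred from the normalized counts. Kndc1 lay past the threshold without control sample 1, 2 or 4 and without mutant sample 1 or 2, but not without control sample 3 or mutant sample 3, although its log2 difference stayed between -0.60 and -0.53 whichever sample was dropped. It was far above the other exchange factor of the set. Rasgrp3 (ENSMUSG00000071042, chromosome 17 from 75435905 to 75529043, plus strand) encodes a diacylglycerol-regulated exchange factor for Ras and Rap1. It had 4.64, 4.49, 3.92 and 4.204 FPKM in controls 1 to 4, against 4.22, 4.83 and 4.91 FPKM in mutants 1 to 3. The groups overlapped, and the log2 difference was 0.10 (standard error 0.0980).

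Among the R-Ras genes, the message of Rras2 was lower and that of Mras higher in all mutant samples. Rras2 (ENSMUSG00000055723, chromosome 7 from 114046785 to 114117781, minus strand) had 55.8, 55.5, 52.8 and 40.1 FPKM in controls 1 to 4, against 31.2, 34.0 and 31.7 FPKM in mutants 1 to 3. Control sample 4 was the lowest of the controls and still above the mutant samples. The mutant mean was 63.3% of the control mean, a log2 difference of -0.64 (standard error 0.114), and -0.75 without control sample 4. Rras2 was not past the threshold without control sample 1, 2 or 3 or without mutant sample 1 or 3. An antisense gene, Gm45615, is annotated within it and was not analysed here.

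Mras (ENSMUSG00000032470, chromosome 9 from 99385420 to 99437381, minus strand) encodes M-Ras, which with SHOC2 activates RAF kinases. Controls 1 to 4 had 51.05, 49.2, 49.1 and 51.9 FPKM, against 60.1, 61.9 and 76.3 FPKM in mutants 1 to 3. Control samples lay close together, and mutant sample 3 was well above the other mutants. The mutant mean was 131.4% of the control mean, a log2 difference of 0.38 (standard error 0.0849) that was 0.28 without mutant sample 3. With all samples and genotype as the sole term, Mras did not lie past the threshold of limma-trend. It did in 4 of the 19 settings computed, namely without mutant sample 2, with sample weights, with the replicate block and with DESeq2. For Rras (ENSMUSG00000038387, chromosome 7 from 45017978 to 45021646, plus strand) the groups overlapped, with 38.0 to 44.6 FPKM in control and 37.0 to 41.7 FPKM in mutant samples (log2 difference -0.07, standard error 0.0742).

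The sum of the 3 R-Ras genes was 142.9 FPKM ± 9.11 (SD, n = 4) in control and 138.0 FPKM ± 6.25 (SD, n = 3) in mutant nerves, with overlapping groups, whereas its make-up differed. Rras2 took 30.8% to 38.3% of it in control and 21.9% to 25.03% in mutant samples. Mras took 33.7% to 39.9% in control and 45.2% to 52.6% in mutant samples. Mutant nerves thus had Mras in front of Rap1b by mean level, and Rras2 behind Rras. The share of Rras overlapped, at 27.8% to 29.7% in control and 25.5% to 31.4% in mutant samples.

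**Figure D2:**
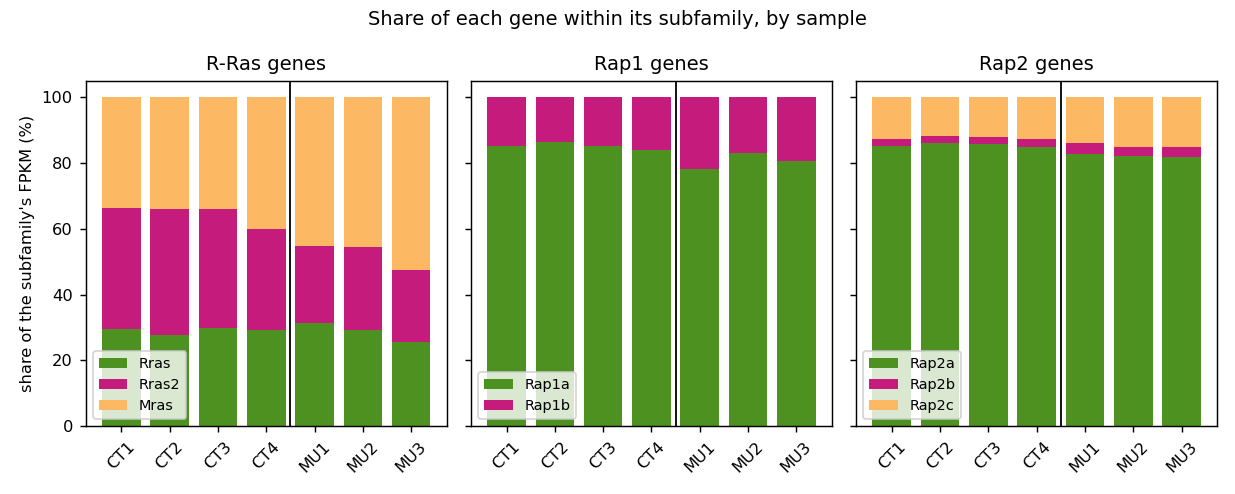
Share of each gene (%) in the summed FPKM of the R-Ras, Rap1 and Rap2 genes in control samples CT1 to CT4 and mutant samples MU1 to MU3. Mras takes over 45% of R-Ras FPKM in each mutant sample and under 40% in each control sample, while Rap1a and Rap2a hold more than 78% of theirs throughout.

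The Rap1 genes went in opposite directions by their means. Rap1a (ENSMUSG00000068798, chromosome 3 from 105727267 to 105801336, minus strand) had 325.0, 341.8, 301.5 and 262.4 FPKM in controls 1 to 4, against 216.7, 282.1 and 235.7 FPKM in mutants 1 to 3. Control sample 4 was below mutant sample 2, so the groups overlapped (log2 difference -0.33, standard error 0.114). Rap1b (ENSMUSG00000052681, chromosome 10 from 117814471 to 117845935, minus strand) had 50.4 to 56.3 FPKM in control and 56.2 to 60.5 FPKM in mutant samples. Its log2 difference was 0.13 (standard error 0.0608), and its groups overlapped only between control sample 1 and mutant sample 3. The share of Rap1b in the Rap1 sum was 13.5% to 16.1% in control and 16.8% to 21.8% in mutant samples, without overlap. The Rap1 sum was 360.6 FPKM ± 36.3 (SD, n = 4) in control and 302.7 FPKM ± 32.2 (SD, n = 3) in mutant nerves, with overlapping groups. The intronic genes Gm43328, Gm43329, Gm43330 and Gm43331 are annotated within Rap1a and were not analysed here. Rap1a has a processed pseudogene, Rap1a-ps2, in the annotation of this build, and reads common to such copies are divided by estimation.

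Rap2a was the Rap2 gene whose level separated the genotypes most. Rap2a (ENSMUSG00000051615, chromosome 14 from 120478461 to 120507194, plus strand) had 126.9, 126.7, 122.0 and 112.8 FPKM in controls 1 to 4, against 79.3, 89.1 and 89.0 FPKM in mutants 1 to 3. The highest mutant value was well under the lowest control value. The mutant mean was 70.3% of the control mean, a log2 difference of -0.51 (standard error 0.0690), between -0.54 and -0.45 with each sample left out. Rap2a was not past the threshold without control sample 1, 2 or 3 or without mutant sample 3. Rap2c (ENSMUSG00000050029, chromosome X from 51003912 to 51018018, minus strand) had 16.8 to 18.7 FPKM in control and 13.4 to 16.5 FPKM in mutant samples. These groups did not overlap but were separated by less than their own spread (log2 difference -0.18, standard error 0.0878), and the difference was -0.08 without mutant sample 1, the lowest sample. Rap2b (ENSMUSG00000036894, chromosome 3 from 61361638 to 61368430, plus strand) had 2.92 to 3.17 FPKM in control and 3.00 to 3.26 FPKM in mutant samples, and the sign of its log2 difference of 0.02 (standard error 0.0905) turned in 6 of the 19 settings computed. B430305J03Rik lies across it on the other strand, with mean values of 0.131 FPKM in control and 0.148 FPKM in mutant nerves, and antisense Gm37696, not analysed here, overlaps its start. The Rap2 sum was 142.6 FPKM ± 7.19 (SD, n = 4) in control and 104.4 FPKM ± 7.42 (SD, n = 3) in mutant nerves, and the groups were separate. Rap2a still took 81.8% to 82.7% of it in mutant samples, against 84.998% to 86.1% in control samples. All 8 GTPase genes together had 646.0 FPKM ± 51.5 (SD, n = 4) in control and 545.0 FPKM ± 38.7 (SD, n = 3) in mutant nerves, with overlapping groups.

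**Figure D3:**
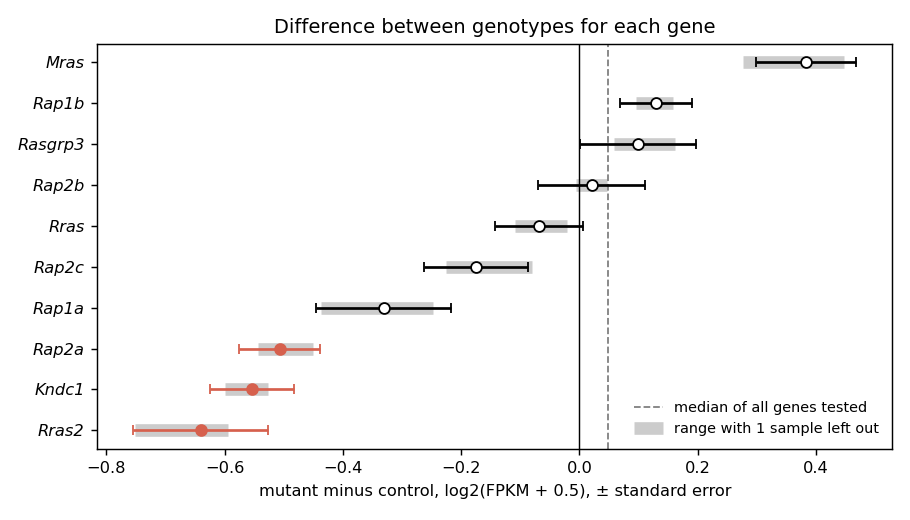
Log2 difference (mutant minus control, log2(FPKM + 0.5)) of each gene with its standard error. Filled red points lie past the threshold over all genes, grey bands show the range with 1 sample left out, and the dashed line is the median of all genes tested at 0.05. Rras2, Kndc1 and Rap2a lie at -0.64, -0.55 and -0.51, and Mras at 0.38.

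Within a genotype the genes did not all vary together. Taking deviations from the group mean over the 7 samples, Rap2a went with Rap1a (r = 0.87), with Rap2c (r = 0.85) and with Rras2 (r = 0.78). Control sample 4 and mutant sample 1 were the lowest of their groups for each of these genes. Rasgrp3 went with Rap2c (r = 0.84) and Rap2a (r = 0.75), although its mean hardly differed between the genotypes. Kndc1 stood outside this group, with r = -0.16 to Rap2a and -0.34 to Rras2, its companions in the comparison of genotypes. Rras and Rap1b, also outside it, went together (r = 0.79). These are descriptions over 7 samples of 2 groups, in which all genes share the library and its depth.

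**Figure D4:**
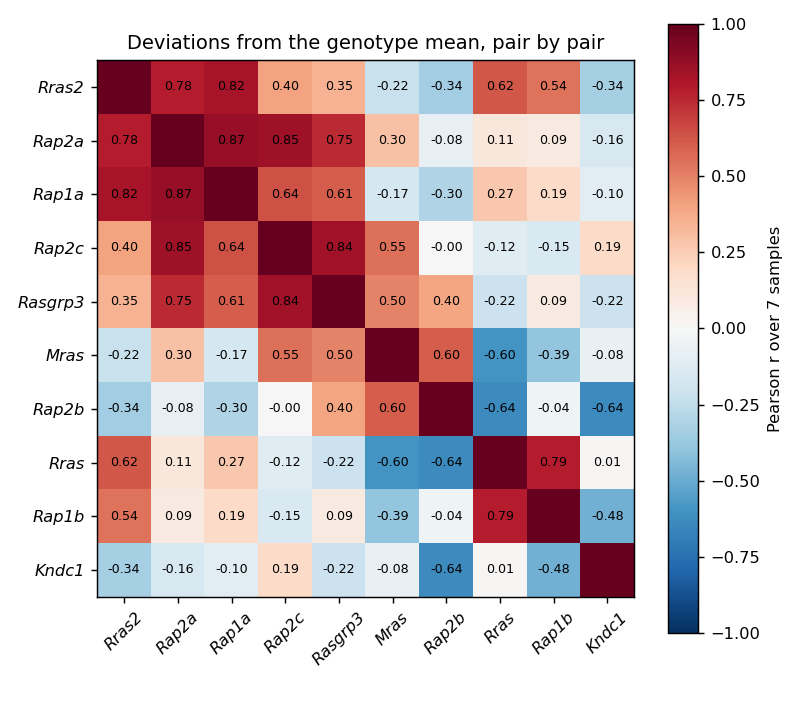
Pearson r over 7 samples between deviations from the genotype mean (log2(FPKM + 0.5)) for each of the 45 pairs of genes. Rras2, Rap2a, Rap1a, Rap2c and Rasgrp3 form a block of positive values from 0.35 to 0.87, and the values of Kndc1 lie between -0.64 and 0.19.

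Outside the 10 genes, the pattern of Kndc1 over the 7 samples was most like that of Cenpq (r = 0.996), Vps8 (r = 0.995), Dscaml1 (r = 0.993), Capn5 (r = 0.990) and Usp20 (r = 0.990). These values include the difference between genotypes, and for deviations from the group means they were 0.94, 0.96, 0.90, 0.93 and 0.91. In all, 279 genes had r above 0.9 with Kndc1, 2.01% of the genes tested. The genes most like Rasgrp3 were Egln1 (r = 0.978), Kcnab1 (r = 0.966), Fam13c (r = 0.958), Cacnb2 (r = 0.957) and Asf1a (r = 0.955), and 34 genes (0.245%) had r above 0.9.

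Other genes of the pathway were taken from 7 lists of 123 genes, of which 120 could be tested. The lists were chosen with earlier results of these data known. Nothing is therefore read from the counts of their genes past the threshold, together or list by list. Past the threshold were 11 of the 120 genes, 3 higher and 8 lower, next to 1.26% and 1.36% of all genes tested. The median difference of the 120 genes was 0.10 on the log2 scale, against 0.05 for all genes tested. Differences were positive in 79 of the 120, next to 8329 of all 13866 genes tested. With the replicate block 19 of them passed, 10 higher and 9 lower. Dropping control sample 1, 2, 3 or 4 left 3, 0, 0 or 3 genes, and dropping mutant sample 1, 2 or 3 left 3, 15 or 0. In the fits with 0 calls by limma-trend, 32 to 36 of these 120 genes had an unadjusted p under 0.05, next to 18.5% to 19.9% of all genes tested, and with all samples edgeR called 9 genes and DESeq2 24 genes. Each of the 11 genes lost its call in at least 3 of the 7 fits with a sample dropped, and Fntb and Rap1gap kept theirs in 4. The groups did not overlap in 35 of the 120 genes, next to 21.1% of all genes tested.

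The genes for lipid modification and carriage of Ras proteins held 4 of the 11, out of 16 tested. All 4 were lower in mutant nerves, next to 1.36% of all genes tested. The list was chosen with earlier results of these data known, so nothing is read from this count. Fntb, the beta subunit of farnesyltransferase, fell to 49.5 FPKM ± 4.24 (SD, n = 3) in mutant nerves, against 71.1 FPKM ± 3.93 (SD, n = 4) in control nerves (log2 difference -0.52, standard error 0.0749, adjusted p = 0.0214, limma-trend). Zdhhc9 and Golga7 encode the parts of the complex that palmitoylates H-Ras and N-Ras, and both fell. Zdhhc9 went from 176.2 to 136.2 FPKM (log2 difference -0.37, standard error 0.0674, adjusted p = 0.0335, limma-trend) and Golga7 from 326.0 to 243.5 FPKM (-0.42, standard error 0.0871, adjusted p = 0.0439, limma-trend). Rap1gds1 encodes SmgGDS, a chaperone of prenylated GTPases, and it fell from 193.0 to 147.3 FPKM (-0.39, standard error 0.0802, adjusted p = 0.0442, limma-trend). In all 4 genes the groups did not overlap. Golga7 and Rap1gds1 did not pass in the quasi-likelihood test of edgeR. The median of this list was -0.12, with 10 genes lower and 6 higher.

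GTPase-activating proteins had 1 of 16 genes past the threshold, next to 2.62% of all genes tested. They had 9 positive and 7 negative differences and a median of 0.12. Rap1gap, which turns off Rap1, had 69.8, 79.1, 81.7 and 85.4 FPKM in controls 1 to 4, against 53.0, 55.2 and 57.0 FPKM in mutants 1 to 3. The groups were separate by a wide gap (log2 difference -0.51, standard error 0.0756, adjusted p = 0.0214, limma-trend). It was the most abundant gene of the list, followed by Rasa3, a GAP for Ras and Rap1, with 55.1 FPKM in control and 52.1 FPKM in mutant nerves (adjusted p = 0.451, limma-trend). Among the 9 plexins, semaphorin receptors with a GAP domain for such GTPases, Plxnb3 fell from 82.7 to 64.9 FPKM (log2 difference -0.35, standard error 0.0718, adjusted p = 0.0451, limma-trend). Blocking on the replicate gave it an adjusted p of 0.0536 in limma-trend. Plxnb1, the most abundant plexin, had 101.9 and 123.2 FPKM and did not pass (log2 difference 0.27, adjusted p = 0.115, limma-trend), but did with the block. Of the plexins 7 had a positive difference (median 0.27).

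Exchange factors outside the set had 2 of 18 genes past the threshold, both higher, next to 1.26% of all genes tested. Plce1, a phospholipase C with an exchange factor domain, rose to 15.8 FPKM ± 1.88 (SD, n = 3) in mutant nerves, against 10.9 FPKM ± 1.29 (SD, n = 4) in control nerves (log2 difference 0.52, standard error 0.113, adjusted p = 0.0495, limma-trend). Rasgef1c rose from 3.75 to 6.64 FPKM (0.74, standard error 0.147, adjusted p = 0.0415, limma-trend), a call lost on dropping any 1 sample. Their levels were far below those of Kndc1, and so was that of Rasgef1b, the most abundant of the list, with 65.3 FPKM in control and 55.4 FPKM in mutant nerves (adjusted p = 0.161, limma-trend). Rapgef1, an exchange factor of Rap1, had 38.3 and 35.0 FPKM (adjusted p = 0.210, limma-trend). By direction, 15 of the 18 exchange factors had a positive difference (median 0.21), next to 8329 of all 13866 genes tested (median 0.05). Under upper quartile scaling 13 did (median 0.15), where the median of all genes tested was -0.009.

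Among 26 effectors, Rgl1, an exchange factor of Ral that binds Ras, rose from 11.0 to 15.3 FPKM (log2 difference 0.46, standard error 0.0838, adjusted p = 0.0334, limma-trend). Rundc3a, which binds Rap2, fell from 40.1 to 28.9 FPKM (-0.46, standard error 0.0843, adjusted p = 0.0337, limma-trend). Map4k4, a kinase that Rap2 acts on and the most abundant effector, had 345.0 FPKM in control and 297.2 FPKM in mutant nerves and did not pass (adjusted p = 0.129, limma-trend). Ralgds had 200.6 and 201.3 FPKM, with overlapping groups (adjusted p = 0.980, limma-trend). Of the 24 other Ras family GTPases tested, Nkiras2, a Ras-like inhibitor of NF-kB, fell from 32.4 to 25.3 FPKM (-0.36, standard error 0.0731, adjusted p = 0.0445, limma-trend), but not with the replicate block. Nras, the most abundant of them, had 190.0 and 145.8 FPKM and lay just above the threshold (log2 difference -0.38, standard error 0.0877, adjusted p = 0.0573, limma-trend), below it with the block. Differences were positive in 19 of the 26 effectors (median 0.12), and in 14 under upper quartile scaling (median 0.07). They were positive in 12 of the 24 other GTPases (median -0.004), and in 7 under upper quartile scaling (median -0.04). The median of all genes tested was 0.05, and -0.009 under upper quartile scaling.

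None of the 11 integrin genes passed with all samples by limma-trend, edgeR or DESeq2, and 5 had an unadjusted p under 0.05 in limma-trend, next to 24.4% of all genes tested. Itgb5 passed when blocked by replicate (adjusted p = 0.0430, limma-trend) and Itga3 without mutant sample 2 (adjusted p = 0.0485, limma-trend), both positive and both named after their values were seen. All 11 integrin genes had a positive difference, with a median of 0.22, next to 8329 of all 13866 genes tested. Under upper quartile scaling 8 did, with a median of 0.16. That scaling also moved the median of all genes tested, from 0.05 to -0.009. Itgb1 was by far the most abundant, with 223.7 FPKM in control and 231.6 FPKM in mutant nerves, followed by Itgav with 46.1 and 53.8 FPKM.

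**Figure D5:**
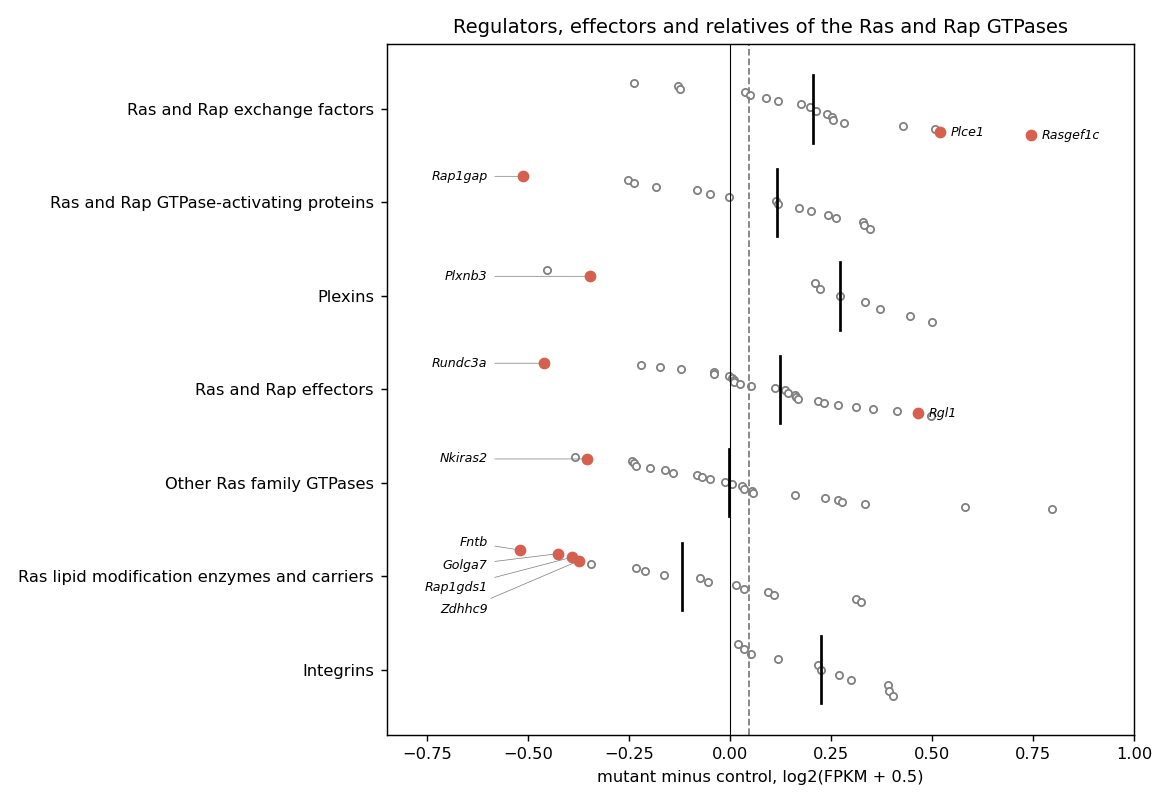
Log2 difference (mutant minus control, log2(FPKM + 0.5)) of each tested gene in 7 lists, with red points for genes past the threshold, black bars at list medians and a dashed line at the median of all genes tested. The lipid modification list has its 4 called genes on the left, and the 11 integrins lie right of 0 here. Under upper quartile scaling 8 of them do, and the median of all genes tested is then -0.009.

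The nerve holds several cell types, and fewer cells of a type cannot be told apart from less RNA per cell. None of the 51 markers of the cell types looked for was at 0 in all samples. Neuronal markers were low, 1 of the 6 with a control mean under 1 FPKM, and do not show that neuronal cell bodies were sampled. Most OL markers had negative and all astrocyte markers positive differences. The summed FPKM of 8 myelinating and mature OL markers was 34626 to 36866 in control and 25063 to 33121 in mutant samples, with Mag and Cnp past the threshold of 8 markers that all had negative differences (median -0.28). With the replicate block Mag and Cnp did not pass, while C1ql1 and Enpp6 of the earlier OL stages (lower) and Slc1a3 of the astrocytes (higher) did. The 5 markers of newly formed OLs summed to 520.9 to 574.1 FPKM in control and 403.2 to 424.8 FPKM in mutant samples, with Neu4 and Gpr17 past the threshold (median -0.36). The 5 OL progenitor markers overlapped in their sums, at 144.9 to 169.1 and 129.5 to 156.6 FPKM, with Cspg4 past the threshold. The 6 astrocyte markers summed to 2559 to 2999 FPKM in control and 3297 to 4072 FPKM in mutant samples, with Aldh1l1, Slc1a2 and Gja1 past the threshold (median 0.50).

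Of the 27 markers of the remaining lists, 0 passed by limma-trend and 0 by edgeR, 10 had an unadjusted p under 0.05 in limma-trend (24.4% of all genes tested), and 4 passed by DESeq2. With the replicate block 7 passed, all higher (Csf1r, Flt1, Cdh5, Pdgfrb, Col1a1, Col1a2 and Dcn). Endothelial markers summed to 84.1 to 98.2 FPKM in control and 109.0 to 119.7 FPKM in mutant samples, microglial markers to 164.2 to 199.7 and 203.4 to 222.1 FPKM. Mural cell markers (70.8 to 107.9 and 100.5 to 115.5 FPKM), fibroblast markers (413.3 to 773.2 and 681.0 to 1353 FPKM) and neuronal markers (22.3 to 32.3 and 20.9 to 47.8 FPKM) overlapped. The differences of Kndc1, Rras2 and Rap2a, from -0.64 to -0.51, were thus seen beside marker medians of -0.36 for newly formed OLs, -0.28 for mature OLs and -0.26 for OL progenitors. Single markers ran from -0.73 to 0.16, from -0.46 to -0.06 and from -0.49 to 0.08 in these lists. That of Mras, 0.38, was seen beside positive medians of 0.57 for fibroblasts, 0.50 for astrocytes, 0.32 for endothelial cells, 0.21 for microglia, 0.20 for neurons and 0.18 for mural cells. Single markers there ran from 0.49 to 0.69, 0.13 to 0.67, 0.19 to 0.54, 0.005 to 0.46, -0.18 to 0.35 and 0.09 to 0.45. Picked single genes and list medians are unlike measures. The part of cell composition in these differences was not tested.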

How the data were processed

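RNA of P14 optic nerves from 4 control and 3 mutant mice was sequenced from poly-A libraries of a stranded kit in single end mode. The authors trimmed the reads, aligned them with STAR 2.5.1b to GRCm38 and quantified genes with RSEM 1.2.22. They deposited, for each of 7 samples, a normalized count per gene (a signal made by dividing the estimated count by a size factor, whose method is not given in the sources used here) and an FPKM value. Columns of their own edgeR comparison in the same table (log2 ratio, p-value and FDR) were not used. Whether counting used the strand is not given in the sources used here.

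Genes with at least 0.5 FPKM in at least 3 samples were tested across the whole table on log2(FPKM + 0.5) with limma-trend (limma 3.58.1, R 4.3.3). Genotype was the sole term, and p-values were adjusted by Benjamini-Hochberg over 13866 genes at a threshold of 0.05. Fold changes on this scale understate the change of low genes. Each sample is both nerves of 1 mouse. Dividing the deposited normalized counts by their step gave reads, whole within 0.01 for 70.1% to 75.6% of values from 0.5 to 10 reads. These were rounded and tested with edgeR 4.0.16 (quasi-likelihood, 401 genes called) and DESeq2 1.42.0 as alternatives. The limma-trend, edgeR and DESeq2 fits were also run on simulated counts, but the recovery of reads was not tested in this way. Replicates differed by more than counting noise (median chi-square per gene 2.09 to 5.72). Deviations from the group means had r across genes of 0.168 to 0.409 in 3 same-numbered pairs, against -0.353 to 0.205 for other pairs. These ranges overlap, so they do not settle whether the samples were paired. The sample number, which the labels do not explain, was also used as a block. Control sample 4 has no same-numbered mutant sample and had no part in the differences under the block.

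The members and all gene lists were chosen with earlier results of these data known. Named are Fasn, the 10 genes, in each pathway list the genes past the threshold (at most 5 in each direction) and the 2 with the highest control FPKM, cell markers past the threshold, the 5 genes most like Kndc1 and Rasgrp3 in Pearson r, and overlapping genes. All genes named by this rule are given except 1, which is not reported here. Control samples were checked for single values set apart. Promoters came from RefSeq tables of GRCm38.p6, taking for each gene the start nearest to that of the deposited table. That start lay 669 bases inside the gene for Mras and 2869 bases inside it for Rap2b. For Rras, the bases after the start were not found in an annotated transcript of the gene.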

Additional observations from a re-analysis of the deposited data

Results flagged for a closer look

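Among 31 genes examined one by one, the lowest control sample was set apart from the other 3 controls in 1 pathway gene, judged by its gap relative to the whole control range, and chance alone sets about 1 in 20 groups apart. Rapgef1 had 36.24 FPKM in control sample 2. It did not pass the threshold between genotypes. In none of the 8 GTPases of the set, Kndc1 or Rasgrp3 was a control sample set apart by this measure.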

How the results depend on the processing

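Over all genes, 363 became 95 without a filter on low values, 1525 with sample weights, 1159 with the replicate block and 1683 with DESeq2 on recovered reads. Of the 10 genes, 3 became 5 with the replicate block. Pathway genes went from 11 to 2 without the filter, 23 with sample weights, 19 with the replicate block and 24 with DESeq2. Cell markers went from 8 to 0 without the filter (20 of 51 at an unadjusted p under 0.05 in limma-trend, next to 18.9% of all genes, and 7 by edgeR with the filter), 18 with sample weights, 16 with the replicate block and 18 with DESeq2. Leaving out 1 sample gave 6 to 907 genes, 0 to 4 of the 10 genes, 0 to 15 pathway genes and 0 to 10 markers. Of the 10 genes, Rap2b had the other sign in 6 of 19 settings. The block changed the calls of Mras, Rap1a, Plxnb3, Nkiras2, Nras, Plxnb1, Mag, Cnp, C1ql1, Enpp6, Slc1a3 and Itgb5, and of 7 markers of other cell types, among the genes named. Control sample 4, which has no same-numbered mutant sample, had no part in the differences under the block. The cause of these shifts was otherwise not tested. With 609 to 937 recovered reads per sample, Rap2b and Rasgrp3 were the least deeply read of the 10 genes, and 4 against 3 mice limit every comparison.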
